A study of Mus musculus with 6 samples.

Results

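The genes of the proteasome were followed in the prefrontal cortex (PFC) of mice after repeated social defeat (RSD). Members were taken by symbol from the table of mRNA transcripts, where every gene named Psma, Psmb, Psmc, Psmd, Psme, Psmf or Psmg with a number was kept and the FPKM (fragments per kilobase of transcript, scaled to the fragments of the library) of its transcripts were summed. This gave 46 genes of the 12559 in the table, with 142 of its 32870 mRNA transcripts. Grouped by the letter of the symbol, they comprised 7 alpha and 9 beta subunits of the core, 6 ATPases and 14 Psmd genes, called lid and base here. The rest were 5 activators with the paralog Psme2b, 1 inhibitor and 4 Psmg assembly chaperones. The letter was the only criterion, so the Psmd group can hold assembly factors as well as subunits. Psmb9, the partner of Psmb6 in the immunoproteasome, was not analysed here. The RSD group was 3 male C57BL/6 mice, 6 to 8 weeks old, that received an aggressive CD-1 intruder in the home cage for 2 h on 6 consecutive nights. The control group was 3 male C57BL/6 mice of the same age that stayed undisturbed in another cage and room, so RSD cannot be told apart from cage or room. Each library was the PFC of a separate mouse taken after an elevated plus maze test, and RSD mice were sequenced only if they had shown anxiety-like behaviour in it.

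The proteasome is the protease complex that degrades proteins tagged with ubiquitin in the cytosol and nucleus. Its core is a barrel of alpha rings, which form the gate, and beta rings, of which Psmb5, Psmb6 and Psmb7 encode the catalytic subunits. The regulatory particle on either end recognises ubiquitin, removes it, and unfolds the substrate with a ring of ATPases. In neurons, the proteasome takes part in the turnover of synaptic proteins, and the immunoproteasome, which holds Psmb8, Psmb9 and Psmb10 in place of the constitutive catalytic subunits, is known mainly from immune cells and from tissue exposed to interferon gamma.

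Proteasome genes can be induced together by the transcription factor Nfe2l1, which acts through antioxidant response elements in their promoters. RefSeq promoter sequences of build GRCm38.p6 were found for 39 of the 46 genes, and the 250 bases before each start were searched on both strands for 5 motifs. The antioxidant response core TGACNNNGC was in 5 of 42 promoters of these genes (11.9%), against 10.2% of 32851 promoters of all genes. TGACTCA, the AP-1 site, was in 1 of 42 promoters (2.38%), against 4.46% of all, and a TGACTCA followed by GC matches both motifs. CCAAT, the box bound by NF-Y, was in 12 of 42 promoters (28.6%), against 33.8% of all. The palindrome bound by nuclear respiratory factor NRF1 was in 1 of 42 promoters (2.38%), against 0.782% of all. CCGGAAG, an ETS site, was in 13 of 42 promoters (31.0%), against 6.91% of all, and these belonged to 12 genes. The promoters of all genes were not matched to those of these genes in base composition or expression. A match describes the letters only. Psmb5, Psmb6 and Psmc6 are printed, chosen after the matches were seen, because they hold the antioxidant response core and encode 2 catalytic subunits and an ATPase, and capitals mark matches to that core and to CCGGAAG.
Psmb5 (chr14:54617996-54618245, minus strand): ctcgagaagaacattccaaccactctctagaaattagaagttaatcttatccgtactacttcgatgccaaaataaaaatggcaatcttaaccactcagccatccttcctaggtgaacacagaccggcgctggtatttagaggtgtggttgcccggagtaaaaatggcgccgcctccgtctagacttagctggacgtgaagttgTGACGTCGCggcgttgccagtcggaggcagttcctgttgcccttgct
Psmb6 (chr11:70525107-70525356, plus strand): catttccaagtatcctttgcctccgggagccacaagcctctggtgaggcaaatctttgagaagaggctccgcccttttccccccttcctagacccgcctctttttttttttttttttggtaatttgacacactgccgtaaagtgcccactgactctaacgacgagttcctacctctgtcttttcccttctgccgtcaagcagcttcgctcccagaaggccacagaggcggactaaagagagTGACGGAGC
Psmc6 (chr14:45329574-45329823, plus strand): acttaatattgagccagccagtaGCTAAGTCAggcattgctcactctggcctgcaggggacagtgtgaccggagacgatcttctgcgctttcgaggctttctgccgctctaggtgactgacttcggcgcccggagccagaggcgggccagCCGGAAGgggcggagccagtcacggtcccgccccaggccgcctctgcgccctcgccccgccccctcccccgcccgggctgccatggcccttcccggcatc
In Psmb5 the match TGACGTCGC ended 39 bases before the start, in Psmb6 TGACGGAGC ended at the last base before it, and in Psmc6 the match lay on the opposite strand, 219 to 227 bases before it.

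Read counts were not in the tables, so the depth behind a value is unknown and no counting interval was given. Over all genes, control replicate 1 was unlike its own group. Its log2 values correlated with r = 0.883 to 0.891 with those of the RSD mice and with r = 0.835 and 0.859 with those of control replicates 2 and 3, over 12277 genes that are not independent replicates. Slc17a7, a defining gene of excitatory neurons, had 327, 331 and 311 FPKM in RSD mice, against 311, 0 and 0.0055 FPKM in control mice. The sum of 5 excitatory markers, which holds it, was 424, 399 and 383 FPKM in RSD mice. In control mice it was 390, 62.4 and 69.7 FPKM. Slc17a7 made up most of the sum in the RSD mice and control replicate 1, so the low sums follow that 1 gene and do not measure excitatory cells. Summed markers of astrocytes were 144 to 170 FPKM in RSD mice and 150 to 169 FPKM in control mice, those of oligodendrocytes 206 to 257 and 120 to 198 FPKM, and those of microglia 30.7 to 45.8 and 31.5 to 45.1 FPKM. Endothelial markers summed to 19.3 to 21.4 FPKM in RSD mice and 21.5 to 39.2 FPKM in control mice, so the sums of endothelial and oligodendrocyte markers did not overlap between the groups. Interneuron markers summed to 110 to 173 FPKM in RSD mice and 90.2 to 149 FPKM in control mice, and blood markers to 115 to 262 and 102 to 233 FPKM. Striatal markers summed to 30.1 to 33.7 FPKM in RSD mice, against 37.1, 15.8 and 20.8 FPKM in control mice. Choroid plexus markers summed to 0.453 to 0.824 FPKM in RSD mice, against 3.75, 0.857 and 0.659 FPKM in control mice. No tested marker of these lists passed an adjusted p under 0.05, and their part in the results was not tested. In such bulk tissue, fewer cells of a type and less RNA per cell cannot be told apart.

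No proteasome gene differed between RSD and control mice past an adjusted p under 0.05. Of the 46 genes, 45 had at least 0.5 FPKM in at least 3 mice and were tested, Psmb8 being the exception. RSD and control mice were compared with limma on log2(FPKM + 0.1), a scale that understates the change of low genes, with Benjamini-Hochberg adjustment over the 12277 genes tested. The smallest adjusted p of a proteasome gene was 0.55, and 0.0733% of all genes were called. At an unadjusted p of at most 0.05, 1 proteasome gene was higher in RSD mice (Psmd3), against a background of 6.21% of all genes, and 1 was lower (Psme2), against 2.74%. Every RSD mouse was above every control mouse for Psmd3 alone (9.39% of all genes) and below for Psme2 alone (6.66%), and the groups overlapped for the other 43 genes. The log2 fold change was positive for 18 of 45 proteasome genes and for 54.5% of all genes, with a median of -0.086 for proteasome genes and 0.032 for all genes. With median scaling it was positive for 11 proteasome genes, and with quantile normalization for 12. The share of all genes was not counted with either scaling. Without scaling, the log2 fold change was under 0.5 in size for 42 of 45 proteasome genes, against 76.8% of all genes. The 95% interval lay within 1 log2 unit of 0 for 37 of the 45 and reached past it for 8, among them Psmb5, Psmb10, Psme2 and Psmg4.

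**Figure D1:**
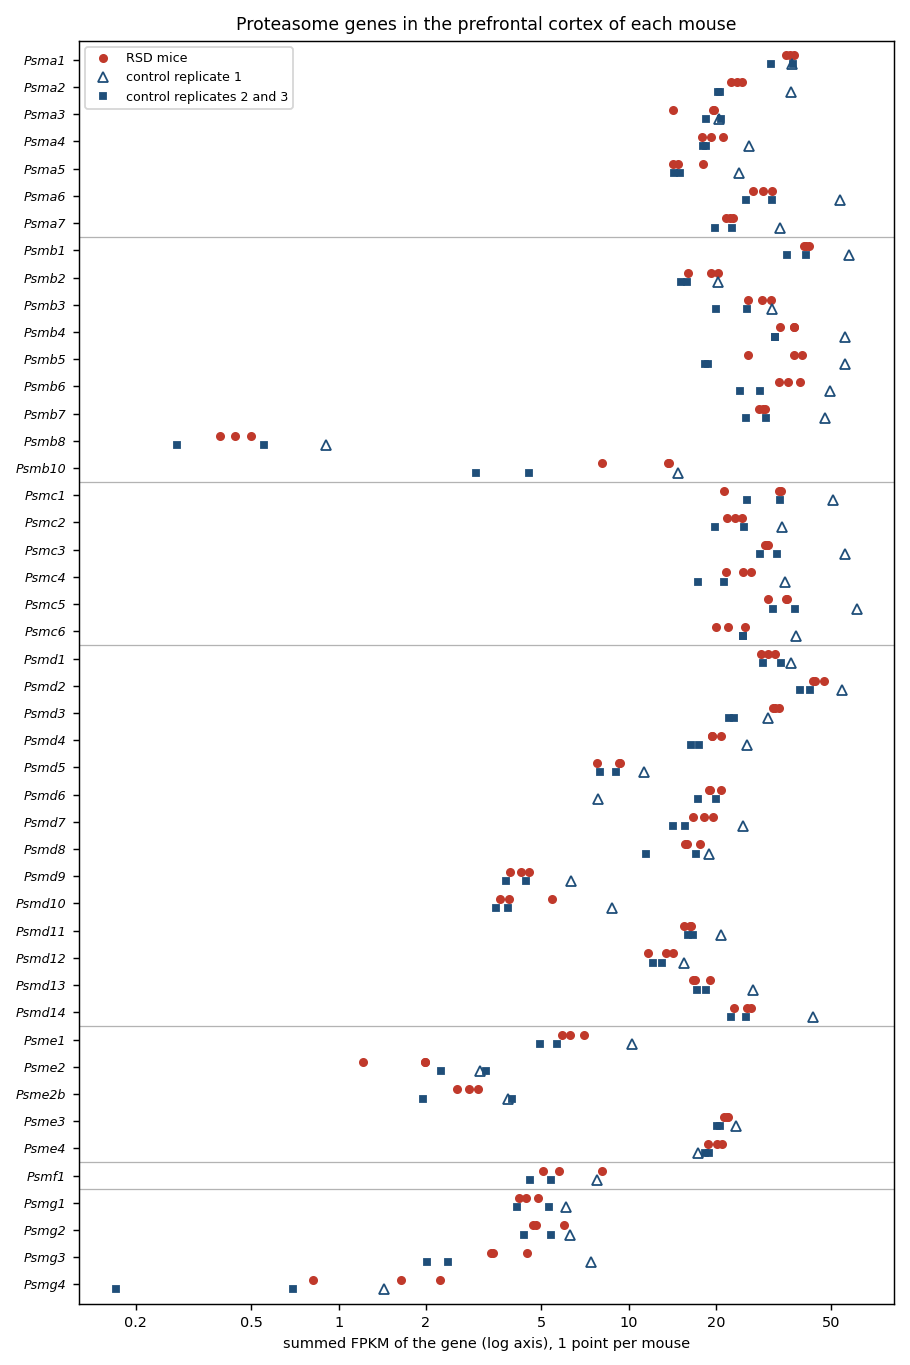
Summed FPKM of each of the 46 proteasome genes on a log axis, 1 point per mouse, with RSD mice as red circles above and control mice in blue below (open triangle: control replicate 1; squares: control replicates 2 and 3). Lines part the subunit groups. The open triangle is the rightmost point for 36 of the 46 genes, while the red circles and blue squares lie close together for most.

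The alpha subunits form the outer rings of the core and the gate through which substrates pass. Psma1 had the highest level of the 7, with 37.0, 34.9 and 35.8 FPKM in RSD mice and 36.5, 36.9 and 30.8 FPKM in control mice. Its groups overlapped, and the log2 fold change was 0.051 (95% interval -0.22 to 0.32). Psma3 had 14.3, 19.7 and 19.5 FPKM in RSD mice, against 20.5, 18.4 and 20.7 FPKM in control mice. A single RSD mouse was low there, and the log2 fold change was -0.17 (SE 0.16, unadjusted p = 0.32 and adjusted p = 0.728 by limma). Psma6 had 26.8, 31.2 and 29.0 FPKM in RSD mice, against 53.7, 25.4 and 31.1 FPKM in control mice. Here 1 control mouse was high and the other two lay among the RSD mice. The mean of the alpha genes over all mice ranged from 16.7 FPKM (Psma5) to 35.3 FPKM (Psma1), and none had an unadjusted p under 0.32.

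The beta subunits carry the proteolytic sites. Psmb5, which encodes the chymotrypsin-like subunit, had 39.7, 37.2 and 25.9 FPKM in RSD mice, against 55.5, 18.4 and 18.8 FPKM in control mice. All 3 RSD mice were above control replicates 2 and 3 and below control replicate 1. Its log2 fold change was 0.33 (95% interval -0.82 to 1.48, adjusted p = 0.821 by limma), and it was 0.86 without control replicate 1 and 0.061 without control replicate 2. Psmb6, the caspase-like subunit, had 39.0, 33.0 and 35.4 FPKM in RSD mice, against 49.2, 24.1 and 28.3 FPKM in control mice, and its RSD mice lay likewise between them. Psmb7, the trypsin-like subunit, had 29.0, 29.4 and 28.2 FPKM in RSD mice, against 47.4, 25.3 and 29.8 FPKM in control mice, so that control replicate 3 was also above the RSD mice. Psmb1, a structural subunit and the most abundant of the core, had 40.1, 41.8 and 41.0 FPKM in RSD mice, against 57.3, 35.2 and 40.9 FPKM in control mice. Psmb3, another structural subunit, had 25.7, 31.0 and 28.7 FPKM in RSD mice, against 31.2, 19.9 and 25.5 FPKM in control mice. The log2 fold changes of these 4 genes were between -0.19 (Psmb7) and 0.18 (Psmb3), and no interval excluded 0.

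The inducible catalytic subunits of the immunoproteasome had lower levels than their constitutive partners in every mouse. Psmb8 had 0.497, 0.39 and 0.44 FPKM in RSD mice, against 0.901, 0.552 and 0.278 FPKM in control mice, and was not tested. Its ratio to Psmb5 was 0.0125, 0.0105 and 0.017 in RSD mice and 0.0162, 0.03 and 0.0148 in control mice, with overlapping groups. Psmb10, on chromosome 8 (105935728 to 105938392 in the files), had 13.7, 13.6 and 8.09 FPKM in RSD mice, against 14.8, 2.96 and 4.54 FPKM in control mice. Control replicate 1 was thus the highest and the other control mice the lowest of the 6. On the log2 scale the difference was 0.96 with a wide interval of -0.54 to 2.46 (unadjusted p = 0.168, adjusted p = 0.641 by limma), and it was 1.62 without control replicate 1 and 0.48 without control replicate 2. The ratio of Psmb10 to Psmb7, which does not depend on the scale of a library, was 0.473, 0.465 and 0.287 in RSD mice and 0.313, 0.117 and 0.152 in control mice.

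The 6 ATPases, Psmc1 to Psmc6, unfold the substrate. Summed over the 6 they had 169, 154 and 164 FPKM in RSD mice and 274, 147 and 174 FPKM in control mice. Psmc5 had the highest level, with 35.2, 30.2 and 34.8 FPKM in RSD mice, against 61.4, 31.4 and 37.6 FPKM in control mice. Psmc6 had the smallest p of the group, with 22.0, 25.2 and 20.03 FPKM in RSD mice, against 37.7, 24.8 and 24.8 FPKM in control mice. Both genes overlapped between the groups. The log2 fold change of Psmc6 was -0.36 (SE 0.20, unadjusted p = 0.13, adjusted p = 0.615 by limma) and that of Psmc5 -0.32 (SE 0.26). It was positive for 1 of the 6 ATPases, against 54.5% of all genes, with a median of -0.30, and control replicate 1 was the highest mouse for all 6. Without that mouse 2 of 6 were positive, the median was -0.026, and the values were -0.16 for Psmc6 and -0.043 for Psmc5.

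The lid and base hold the ubiquitin receptors, the scaffolds and the deubiquitinase Psmd14. Psmd3, a lid subunit on chromosome 11 (98682554 to 98695979), had 32.0, 33.0 and 31.4 FPKM in RSD mice, against 30.1, 22.2 and 23.0 FPKM in control mice. The RSD mice lay together above all control mice. The difference was 0.37 on the log2 scale (95% interval 0.019 to 0.72, unadjusted p = 0.042, adjusted p = 0.553 by limma). With any 1 mouse other than control replicate 1 left out, the unadjusted p was between 0.0835 (without RSD replicate 3) and 0.125 (without control replicate 3). Psmd6, another lid subunit, had 19.0, 20.7 and 18.9 FPKM in RSD mice, against 7.82, 17.3 and 20.04 FPKM in control mice. Only control replicate 1 was low, and without it the log2 fold change was 0.069 instead of 0.48. Psmd2, the base scaffold and the most abundant proteasome gene, had 43.0, 43.9 and 47.1 FPKM in RSD mice, against 54.3, 38.8 and 42.0 FPKM in control mice. Its log2 fold change was 0.0022 (95% interval -0.37 to 0.37). The other 11 Psmd genes had mean levels from 4.54 FPKM (Psmd9) to 31.6 FPKM (Psmd1) and unadjusted p of at least 0.30.

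The activators open the core gate without ATP. Psme1 and Psme2 encode the PA28 alpha and beta subunits, which interferon gamma induces, Psme3 encodes the nuclear PA28 gamma and Psme4 encodes PA200. Psme2, on chromosome 14 (55587441 to 55591087), had 1.22, 1.99 and 1.99 FPKM in RSD mice, against 3.08, 2.26 and 3.23 FPKM in control mice. In this sum of 2 transcripts the RSD mice lay below all control mice. ENSMUST00000161807 was listed at 0 in every RSD mouse and in control replicate 3. It had 3.05 and 1.29 FPKM in control replicates 1 and 2. ENSMUST00000161573 had 1.22, 1.99 and 1.99 FPKM in RSD mice, against 0.028, 0.965 and 3.23 FPKM in control mice, and overlapped. The log2 fold change of the summed gene was -0.71 (95% interval -1.35 to -0.064, unadjusted p = 0.0361, adjusted p = 0.55 by limma). The unadjusted p was 0.0902 without control replicate 1, 0.106 without control replicate 3 and 0.0889 without RSD replicate 1, where the log2 fold change was -0.49, and with the FPKM of all transcripts of the locus the change was -0.44 (unadjusted p = 0.233 by limma). Reads of Psme2 and of Psme2b, its close copy, could be divided between them by the authors' software, so both values are uncertain. Psme2b had 3.01, 2.82 and 2.55 FPKM in RSD mice, against 3.84, 3.95 and 1.95 FPKM in control mice. Psme1 had 5.90, 7.04 and 6.29 FPKM in RSD mice, against 10.2, 4.94 and 5.65 FPKM in control mice. Psme1 and Psme2b overlapped between the groups. Psme4 had 20.1, 18.8 and 20.9 FPKM in RSD mice, against 17.4, 18.3 and 18.9 FPKM in control mice, and Psme3, the most abundant activator, 22.0, 21.8 and 21.3 FPKM against 23.5, 20.2 and 20.7 FPKM. Their log2 fold changes were 0.13 (SE 0.098) and 0.020 (SE 0.10). The inhibitor Psmf1 had 8.11, 5.73 and 5.05 FPKM in RSD mice, against 7.75, 4.57 and 5.37 FPKM in control mice.

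The chaperones Psmg1 to Psmg4 assemble the alpha ring and had lower levels than most subunits. Psmg4 had 1.64, 2.24 and 0.815 FPKM in RSD mice, against 1.43, 0.698 and 0.17 FPKM in control mice. The groups overlapped and the log2 fold change of 1.17 had an interval of -0.58 to 2.92 (adjusted p = 0.63 by limma). It was 1.74 without control replicate 1, 0.49 without control replicate 3 and 0.56 with a pseudocount of 1. Psmg1 had 4.85, 4.41 and 4.19 FPKM in RSD mice, against 6.09, 4.12 and 5.31 FPKM in control mice, and Psmg2, the most abundant chaperone, 4.66, 5.98 and 4.80 FPKM against 6.26, 5.40 and 4.36 FPKM. Psmg3 had 4.46, 3.34 and 3.404 FPKM in RSD mice, against 7.40, 2.37 and 2.01 FPKM in control mice, so that the RSD mice again lay below control replicate 1 and above the other control mice.

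**Figure D2:**
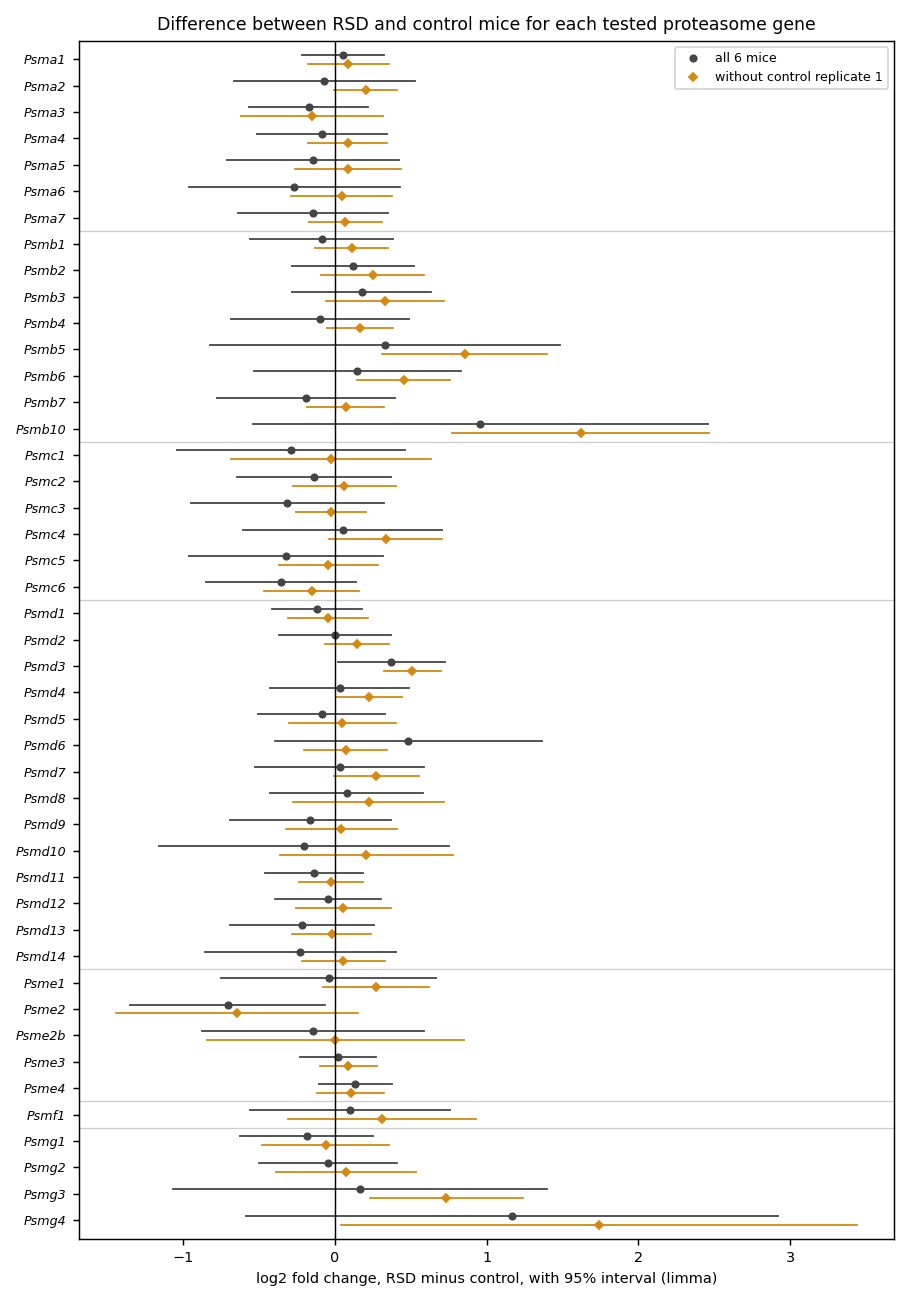
Log2 fold change (RSD minus control) of each of the 45 tested proteasome genes with its 95% interval from limma, for all 6 mice (grey circles) and without control replicate 1 (orange diamonds). With all mice 18 of 45 genes lie right of 0, and without that mouse 35 of 45.

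Among the 6 mice, 1 control mouse deviated most in the proteasome genes. Control replicate 1 was the highest of the 6 mice for 36 of 46 proteasome genes, and for 33.6% of all tested genes. Its level over the mean of control replicates 2 and 3 had a median of 1.51 over proteasome genes and of 1.17 over all tested genes. The summed level of all members was 914, 911 and 889 FPKM in RSD mice and 1253, 776 and 855 FPKM in control mice. For the core the sums were 402, 412 and 382 FPKM in RSD mice and 562, 328 and 354 FPKM in control mice, and for the lid and base 267, 271 and 272 against 331, 234 and 258 FPKM. The RSD mice thus lay between control replicate 1 and the other control mice in these 3 sums, but not in that of the ATPases, where control replicate 3 was above every RSD mouse. The FPKM of the whole mRNA table had the same order. They summed to 158966, 158186 and 149323 in RSD mice and to 168805, 135141 and 140437 in control mice. This order is thus not particular to the proteasome genes, and their sums were not divided by these totals. The activators differed least, with 52.2, 52.5 and 53.0 FPKM in RSD mice and 58.0, 49.6 and 50.4 FPKM in control mice. Psmd6 and Psme4 were instead lowest in control replicate 1, and a single Psmd6 transcript, ENSMUST00000022256, was listed at 0.09 FPKM there. When the median of the members was subtracted in each mouse, the median SD of a gene over mice was 0.17 on the log2 scale in place of 0.28, and the SD was smaller for 35 of 45 genes. That median came from the same genes and holds the shift of every mouse. A smaller SD is thus largely built in and does not single out 1 mouse.

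These summaries of control replicate 1 were chosen after that mouse had been seen to stand apart. Without it, the log2 fold change was positive for 35 of 45 proteasome genes, against 60.7% of all genes, and its median was 0.087, against 0.089 for all genes. At an unadjusted p of at most 0.05, 7 of the 45 (Psmb5, Psmb6, Psmb10, Psmd3, Psmd4, Psmg3 and Psmg4) were higher in RSD mice, against 16.4% of all genes. At that level 0 of the 45 were lower, but the share of all genes lower without this mouse was not counted. None passed the adjusted threshold, which 0.456% of all genes did, and the smallest adjusted p was 0.0832, that of Psmd3. Of these, Psmb10 had a log2 fold change of 1.62 (95% interval 0.77 to 2.47, adjusted p = 0.12 by limma). With 2 control mice left, these values rest on a small control group.

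For comparison, other genes that encode large complexes were taken from their symbols, also after that mouse had been seen. The median deviation of a set from the gene means was 0.63 higher in control replicate 1 than in the mean of control replicates 2 and 3 for proteasome genes on the log2 scale. The same difference was 0.999 for 73 cytosolic ribosomal protein genes, 0.54 for 74 mitochondrial ribosomal protein genes, 0.94 for 74 genes of oxidative phosphorylation and 0.22 for all tested genes. The high level was thus shared with other sets, and what made that mouse differ was not tested. Among the subunit groups it was 0.83 for the beta subunits, 0.76 for the ATPases, 0.63 for the alpha subunits, 0.45 for the lid and base and 0.43 for the activators.

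**Figure D3:**
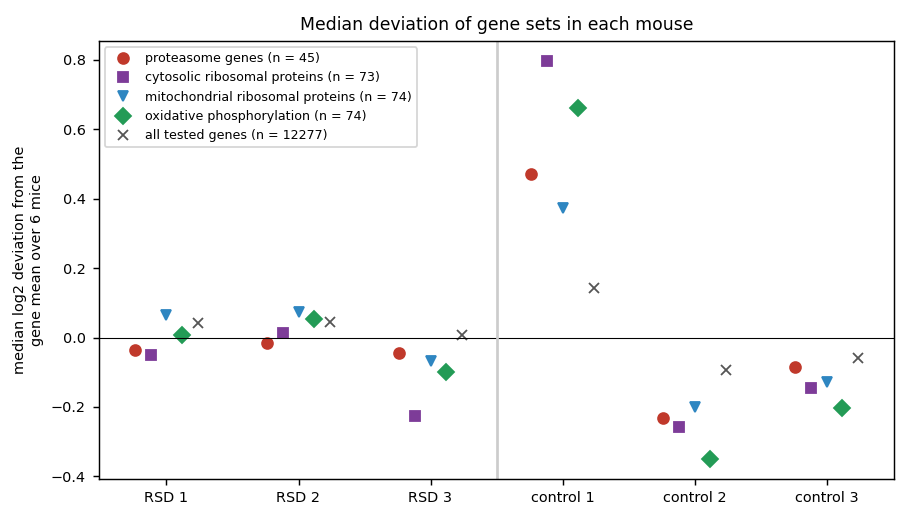
Median log2 deviation of the genes of each set from their means over the 6 mice, per mouse, with RSD mice on the left and control mice on the right. Proteasome genes (red) lie at -0.036, -0.016 and -0.045 in RSD mice and at 0.47, -0.23 and -0.084 in control mice, and the other sets are also high in control replicate 1.

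Most members had several transcripts in the table, 32 with more than 1 and up to 7. Of 142 transcripts 130 were tested and 0 passed the adjusted threshold (0.163% of all mRNA transcripts did), while 3 were higher and 4 lower in RSD mice at an unadjusted p of at most 0.05 (6.78% of all, in either direction). The 5 with the smallest p each held at most 34.1% of their gene's FPKM in any mouse. Psmc3 ENSMUST00000146506 (chromosome 2, 91054301 to 91056996) had 1.68, 1.04 and 1.12 FPKM in RSD mice, against 0.262, 0.139 and 0.204 FPKM in control mice. Psmc3 ENSMUST00000185715 had 0.469, 0.844 and 0.349 FPKM in RSD mice, against 12.6, 2.35 and 4.16 FPKM in control mice. The 2 transcripts of Psmc3 went in opposite directions with groups that did not overlap, at log2 fold changes of 2.19 (SE 0.36, adjusted p = 0.226 by limma) and -3.03 (SE 0.65, adjusted p = 0.45), which were 0.91 and -2.002 with a pseudocount of 1. Psma1 ENSMUST00000135570 had 8.29, 11.9 and 7.68 FPKM in RSD mice, against 0.159, 0 and 3.03 FPKM in control mice. It was 22.4%, 34.1% and 21.4% of the gene in RSD mice and 0.434%, 0% and 9.82% in control mice, while the level of Psma1 as a whole overlapped between the groups. Psmb4 ENSMUST00000136143 had 0.587, 2.11 and 1.10 FPKM in RSD mice, against 6.23, 6.41 and 2.13 FPKM in control mice, and Psma7 ENSMUST00000129529 had 0.575, 0.417 and 0.863 FPKM against 1.43, 1.10 and 1.03 FPKM. Both were lower in every RSD mouse than in every control mouse. Since the 5 were picked by p, such separation is largely built in, and its share over all transcripts was not counted. Tested as shares of the gene, 116 transcripts gave 0 adjusted calls (0.143% of all shares) and 5 at the unadjusted level (5.78% of all), of 3 genes, Psmc3, Psma1 and Psmb4. FPKM of isoforms that share exons are estimates, and a value of 0 can be a failed estimate.

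**Figure D4:**
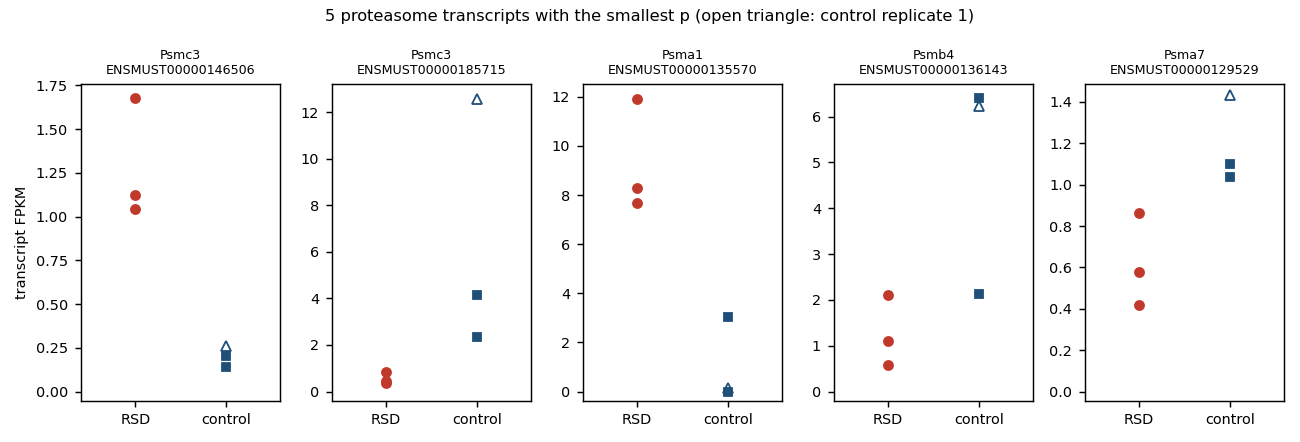
FPKM of the 5 proteasome transcripts with the smallest p, 1 point per mouse, with RSD mice on the left and control mice on the right of each panel (open triangle: control replicate 1). The transcripts were picked by p, so groups that do not overlap in any panel are largely built in. The share of such transcripts over all was not counted, and no transcript passed the adjusted threshold.

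In the table of lncRNA transcripts, 12 transcripts were assembled into 9 of the member loci. In the Psma1 locus, MERGE.41355.1 had 0.03, 1.67 and 0.007 FPKM in RSD mice, against 7.83, 0.124 and 1.37 FPKM in control mice, with overlapping groups. In the Psmd8 locus, MERGE.39389.5 had 6.55, 5.09 and 5.56 FPKM in RSD mice, against 9.48, 5.67 and 3.498 FPKM in control mice. Both were highest in control replicate 1, as were NONMMUT037544.2, MERGE.28690.7 and MERGE.13336.5. The rest of the 12 transcripts were highest in other mice. NONMMUT016431.2 in the Psma2 locus, for example, was highest in RSD replicate 3, with 1.44 FPKM.

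A further list held 33 genes without such a symbol that belong to or work with the proteasome. They included ubiquitin receptors, shuttles, deubiquitinases and the factors that regulate its genes, and 32 were in the table. None passed the adjusted threshold, and at an unadjusted p of at most 0.05, 2 of 32 were higher and 1 of 32 lower in RSD mice, near the shares of 6.21% and 2.74% over all genes. Bag6, a chaperone for misfolded and mislocalised proteins, had 27.4, 27.8 and 28.1 FPKM in RSD mice, against 16.8, 15.8 and 11.3 FPKM in control mice. The groups lay well apart, with a log2 fold change of 0.94 (SE 0.17, unadjusted p = 0.00161, adjusted p = 0.374 by limma). AI314180, the older symbol of the proteasome adaptor Ecpas, had 34.2, 26.8 and 27.6 FPKM in RSD mice, against 39.4, 44.3 and 41.0 FPKM in control mice, a log2 fold change of -0.50 (adjusted p = 0.531). Ubqln2, a ubiquitin shuttle, had 46.3, 45.7 and 40.0 FPKM in RSD mice, against 40.0, 32.2 and 31.3 FPKM in control mice, a log2 fold change of 0.36 (adjusted p = 0.552). The groups did not overlap for these 3 genes, nor for Uba1 and Nploc4, higher in every RSD mouse, and Ngly1, Shfm1 and Uba6, lower in every RSD mouse. That made 4 of 32 above and 4 of 32 below, against 9.39% and 6.66% of all genes. With locus sums the log2 fold change of AI314180 was -0.27. The median log2 fold change of the list was -0.005, with 15 of 32 positive, and control replicate 1 was highest for 10 of 32, against 36 of 46 among the members taken by symbol.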

How the data were processed

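RNA of the PFC of 3 RSD and 3 control mice was sequenced from libraries depleted of ribosomal RNA that keep the strand. The authors assembled transcripts and computed FPKM with the Cufflinks suite, and deposited these FPKM values per transcript and mouse. The submitters' processing notes name Bowtie 0.12.2 and mm9, but 142 of 142 member transcripts overlapped their gene in GRCm38. The log2 fold change and p-value columns of the authors were not used. No sample column was left without a match.

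FPKM were summed by symbol, kept at 0.5 FPKM or more in at least 3 mice, taken as log2(FPKM + 0.1) and tested with limma 3.58.1 (R 4.3.3, trend of the spread over the mean), with Benjamini-Hochberg adjustment over all features tested. On simulated data, changes of 1 and 2 log2 units were called after adjustment for 29% and 58% of 100 changed genes each, among 12277, and for 1% and 24% of 100 changed transcripts each, among 29471. The simulated noise was normal and separate for each gene, so it lacked the shift that genes shared in control replicate 1. Members, lists and tests were chosen with earlier results of these data known. Values are given for the catalytic subunits, the 2 smallest p and the highest mean of each group, any unadjusted p of at most 0.05, any mouse under 0.5 FPKM, the 5 transcripts and 3 associated genes of smallest p. Psme1, Psme2b, Psmg3 and the lncRNA transcripts named were added after their values were seen. The alternatives were other pseudocounts, filters, scalings, no trend, a replicate block, locus sums and each mouse left out.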

Additional observations from a re-analysis of the deposited data

How the results depend on the processing

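The count of proteasome genes past the adjusted threshold was 0 under every alternative run, as were those of transcripts, shares and associated genes. At an unadjusted p of at most 0.05, the count higher in RSD mice was 1 with all mice, 0 with no trend, and 0 to 7 with 1 mouse left out, the 7 without control replicate 1. The count lower in RSD mice was 1 with all mice, 2 with median scaling and with quantile normalization, 0 with locus sums and 0 to 1 with 1 mouse left out (Psme2b, not Psme2, without control replicate 3). Over all genes, 6.21% were higher and 2.74% lower with all mice, and 16.4% were higher without control replicate 1. Shares of all genes under the other settings were not counted, so a shift of the whole table cannot be told apart there. Positive log2 fold changes numbered 18 with all mice, 11 with median scaling, 12 with quantile normalization, 15 with locus sums and 10 to 35 with 1 mouse left out. The positive share of all genes was 54.5% with all mice and 60.7% without control replicate 1, and was not counted otherwise. The median log2 fold change was -0.086 with all mice, -0.17 with median scaling, -0.15 with quantile normalization and -0.20 to 0.087 with 1 mouse left out. With the replicate number as a block, 1 gene was higher (Psmg4, not Psmd3) and 0 lower at that level. The numbers are not known to pair mice, and deviations of mice with the same number correlated at 0.129, -0.0945 and 0.0961. Of the 45 tested genes, the sign turned for 7 with median scaling, 6 with quantile normalization and 3 with locus sums. With 1 mouse left out it turned for 1 (without RSD replicate 3) to 17 (without control replicate 1). Examples are Psma1 (-0.029 with median scaling, -0.030 with quantile normalization, -0.042 with locus sums), Psmd2 (-0.077 with median scaling, -0.067 with quantile normalization) and Psme3 (-0.059 with median scaling, -0.079 with quantile normalization). With 1 mouse left out, genes whose log2 fold change turned sign included Psmf1 (-0.095 to 0.31), Psmg2 (-0.18 to 0.073), Psmd2 (-0.098 to 0.14), Psmb7 (-0.38 to 0.071), Psma6 (-0.49 to 0.044), Psmb1 (-0.24 to 0.11), Psmb6 (-0.062 to 0.45), Psme3 (-0.022 to 0.087) and Psma1 (-0.033 to 0.096). The cause was not tested. With 3 mice per group and no read depth, most changes of 1 log2 unit and many of 2 in a gene could be missed, and more in a transcript.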
